A study of Mus musculus with 6 samples.

Results

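Cytochrome P450 enzymes are heme proteins that insert an oxygen atom into their substrates, with electrons passed from NADPH by P450 oxidoreductase. In the lung, families 1 to 3 oxidise drugs and inhaled chemicals, most of all in the club cells of the small airways. Family 4 hydroxylates fatty acids and their inflammatory derivatives, and the higher-numbered families act on cholesterol, bile acids, steroids and vitamins. The members described here were all genes whose array symbol is Cyp followed by a digit, apart from Cyp51, a rule that uses the name and no measured value. There were 62 such genes among the 12393 genes read, in 29 subfamilies (a number and letter, as in Cyp2b) and 14 families. Each gene was read by the probe set (a group of oligonucleotides for 1 transcript) with the highest mean over the 6 arrays, and a level is given as the deposited log2 expression value. Levels of different genes come from different probes, so ranking genes by brightness is approximate.

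The samples were whole homogenised lungs of wildtype C57BL/6J mice labelled male, aged 8 to 10 weeks, taken on day 14 after 50 µl of saline with or without 1 mg/kg bleomycin, an antibiotic that injures the lung and is used to produce fibrosis. The route is oropharyngeal in one label and intratracheal in another. Saline arrays A, B and C were compared with bleomycin arrays D, E and F, 1 array a sample, and no label names the animals, so p-values measure only the spread between these samples. Array medians lay between 7.37 and 7.41 log2 units. Saline array B did not match its male label: Xist, the female X-inactivation transcript, read 11.40 there against 7.23 to 7.88 on the other arrays, and the Y-linked Eif2s3y read 4.05 against 7.23 to 8.02. The results are therefore also given without array B. Cyp2b13, Cyp4a12a, Cyp2d9 and Cyp2b9, all dim here, are among the P450 genes known to differ by sex in mouse liver. Cyp2b13 was highest on array B (6.36, against 5.97 on A and 6.15 on C). Cyp4a12a read 6.19, 6.17 and 6.48 on arrays A, B and C, Cyp2d9 read 5.77, 5.94 and 5.95, and Cyp2b9 read 6.43, 6.47 and 6.75.

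The sequences just before the start of the 3 brightest members and of Cyp1a1 are shown because these genes carry the largest signals, or the largest spread between arrays, in the set. They are the 250 bases before the annotated start, from RefSeq on GRCm38.p6, read 5′ to 3′ on the gene's strand. Capitals mark matches on either strand to 5 motifs: GCGTG, the core bound by the aryl hydrocarbon receptor with ARNT, TGTTTAC, a forkhead motif, TTGCNNAA, a C/EBP motif, CTCAAG, an NKX2-1 motif, and TATAAA, the letters of a TATA box.
Cyp2f2 (chr7:27119705-27119954, plus strand): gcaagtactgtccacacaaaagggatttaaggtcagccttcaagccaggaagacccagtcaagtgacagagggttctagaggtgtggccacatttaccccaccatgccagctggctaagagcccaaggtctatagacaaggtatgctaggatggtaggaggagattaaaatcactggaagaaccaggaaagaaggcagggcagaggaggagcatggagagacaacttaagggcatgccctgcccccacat
Cyp4b1 (chr4:115647722-115647971, minus strand): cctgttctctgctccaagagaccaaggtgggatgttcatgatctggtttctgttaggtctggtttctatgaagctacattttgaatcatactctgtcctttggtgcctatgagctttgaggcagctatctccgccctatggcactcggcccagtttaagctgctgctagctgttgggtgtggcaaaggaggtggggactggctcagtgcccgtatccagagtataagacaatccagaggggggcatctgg
Cyp2b10 (chr7:25897408-25897657, plus strand): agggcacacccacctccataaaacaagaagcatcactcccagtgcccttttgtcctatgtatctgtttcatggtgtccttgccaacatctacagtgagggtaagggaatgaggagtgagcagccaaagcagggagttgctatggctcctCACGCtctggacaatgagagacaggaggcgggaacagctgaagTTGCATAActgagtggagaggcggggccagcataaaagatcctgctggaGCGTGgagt
Cyp1a1 (chr9:57697363-57697612, plus strand): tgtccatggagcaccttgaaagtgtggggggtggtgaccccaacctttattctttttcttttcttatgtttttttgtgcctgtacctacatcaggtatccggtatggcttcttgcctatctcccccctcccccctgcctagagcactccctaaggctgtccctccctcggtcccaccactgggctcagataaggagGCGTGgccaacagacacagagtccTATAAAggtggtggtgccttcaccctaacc
The Cyp2b10 window held GCGTG on both strands and 1 C/EBP match. The Cyp1a1 window held GCGTG upstream of a TATAAA whose first base lies at -30 from the start. The Cyp2f2 and Cyp4b1 windows held none of the 5 motifs in these letters. A window was found for 45 of the 62 members, and the letters TATAAA, on either strand and at any position, were in 17 of them (37.8%), against 12.4% of all 32851 windows of the same length. GCGTG was in 10 of the 45 (22.2%), against 28.2% of all windows, and the forkhead motif in 6 (13.3%), against 3.17%. The C/EBP motif was in 8 (17.8%), against 9.56% of all windows, and the NKX2-1 motif in 7 (15.6%), against 13.3%. Members were counted by their first window only, and the background counted every window. Related genes share sequence, so their matches are not independent. The forkhead matches lay in Cyp2c38, Cyp2c39, Cyp3a11, Cyp3a16, Cyp3a44 and Cyp2j5, and the C/EBP matches included Cyp2b9, Cyp2b10, Cyp2b13 and Cyp2b19. The 4 called members with a window held none of the 5 motifs. All of these are matches of letters and say nothing of binding.

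After bleomycin, 5 of the 62 P450 genes fell and 2 rose at an adjusted p of 0.05 (limma's moderated test, Benjamini-Hochberg adjustment over 22626 probe sets). Those that fell were Cyp4b1, Cyp2d22, Cyp39a1, Cyp2f2 and Cyp3a13, and those that rose were Cyp7b1 and Cyp4f18. Across all genes, 5.60% were called in either direction, 1.90% lower and 3.70% higher, so rises were the more frequent call on the array as a whole. With 1 array left out, 2 to 5 members fell and 0 to 2 rose, and without saline array B 2 fell (Cyp4b1 and Cyp2d22) and 0 rose. All 3 bleomycin arrays lay below all 3 saline arrays for 17 members, which is 27.4% of them, against 14.6% of all genes. They lay above for 2 members (3.23%), against 13.3% of all genes. The difference was below 0 for 47 members (75.8%), against 57.0% of all genes. Most members are dim, and in the dimmest of 4 equal brightness classes (by saline mean) the shares below 0 were closer, 75.7% of 37 members against 68.5% of all genes. The median difference of the 62 was -0.17 log2 units, against -0.04 for all genes. After another quantile normalization the shares below 0 were 69.4% of members and 55.8% of genes. In whole lung, fewer cells of a type and less RNA per cell cannot be told apart.

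**Figure D1:**
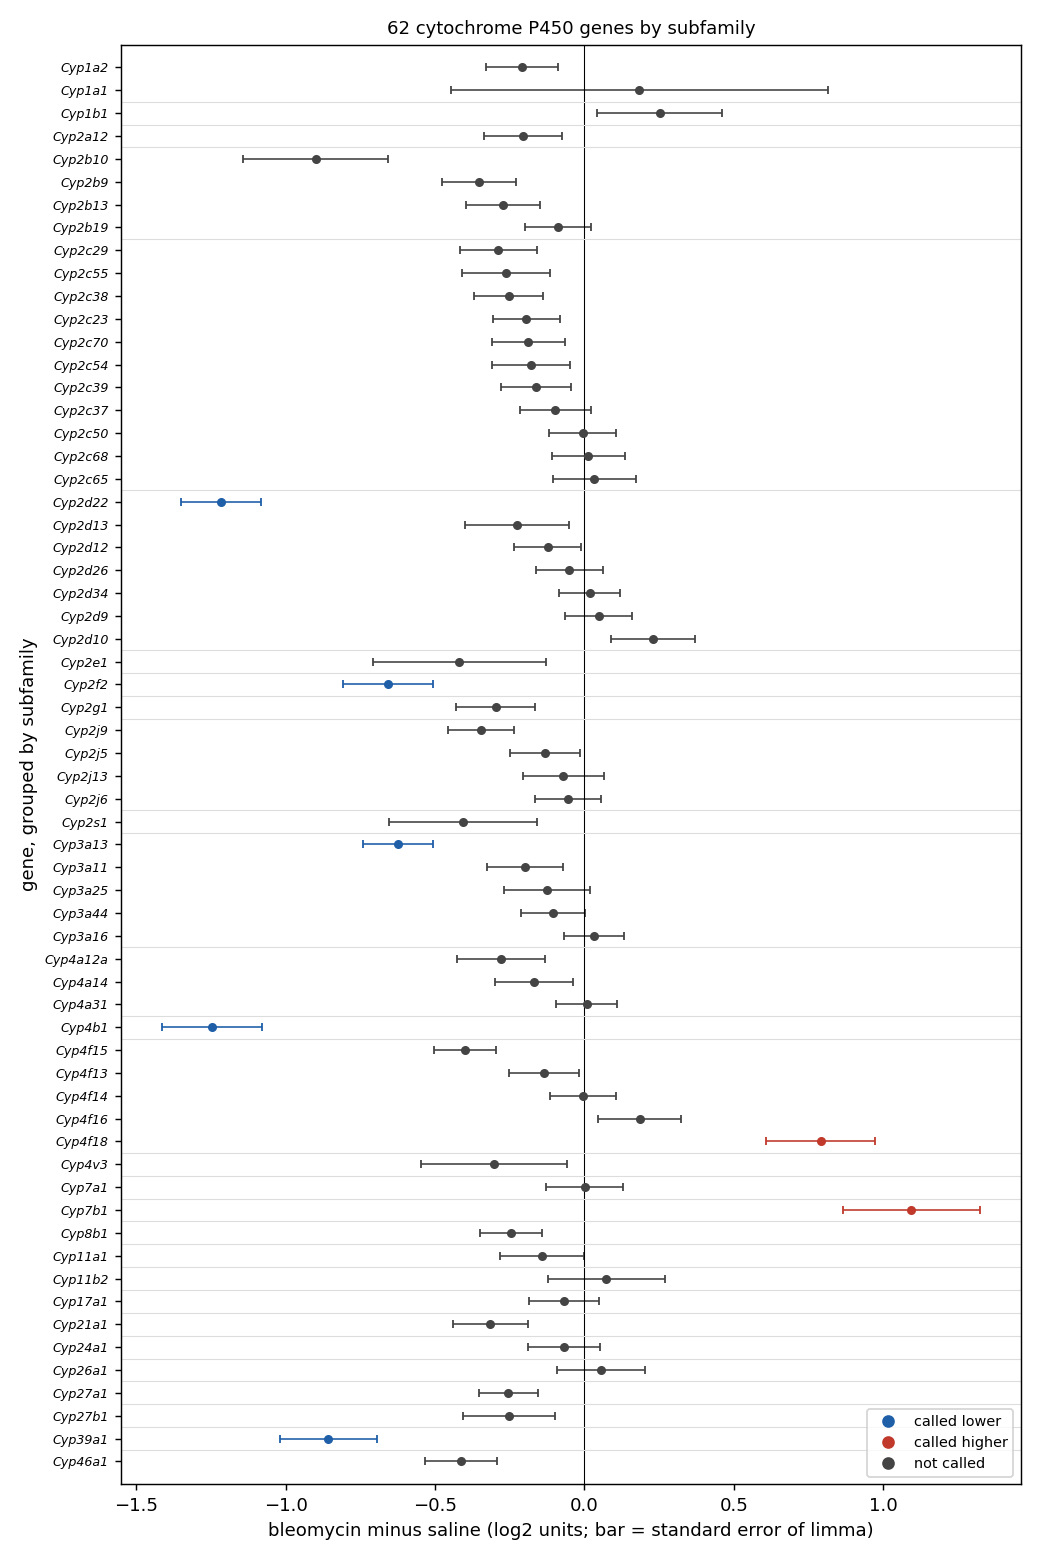
Difference of each of the 62 genes, bleomycin minus saline in log2 units, grouped by subfamily along the vertical axis. Points are limma estimates from 3 arrays a group and bars are standard errors. Blue points were called lower (5 genes), red points higher (2 genes), and most subfamilies sit slightly to the left of 0.

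Among the enzymes of foreign compounds, Cyp2f2, the club cell enzyme that activates naphthalene, was the brightest member. It read 13.87, 13.57 and 13.75 on saline arrays A, B and C and 12.80, 13.30 and 13.12 on bleomycin arrays D, E and F. The groups did not overlap, with array D the lowest. The mean fell by 0.66 log2 units (SE 0.15, adjusted p = 0.0463), a 1.58-fold reduction. That call lay close to the threshold: leaving out array A gave an adjusted p of 0.119, B 0.0639, C 0.122, D 0.0984 and F 0.119, and centring on ribosomal protein probe sets gave 0.0531. Leaving out E kept the call (adjusted p = 0.0408).

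Cyp2b10, a phenobarbital-inducible enzyme in liver that is also made in the airways, read 12.27, 11.95 and 12.16 in saline lungs. It read 10.62, 11.64 and 11.43 after bleomycin, again without overlap and again lowest on array D. The difference of -0.90 (SE 0.24) did not pass the test (adjusted p = 0.0761). Of its other 2 probe sets, 1 passed narrowly (-0.97, adjusted p = 0.0498) and the other did not (-0.90, adjusted p = 0.113). With 1 array left out, the difference on the brightest probe set ran from -0.59 without D (adjusted p = 0.0791) to -1.10 without E, the only such fit that passed (adjusted p = 0.0452). Without array B it was -0.99 (adjusted p = 0.108).

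Beside these 2 genes, 8 markers of club cells were read and none was called by limma (median -0.40, 5 lower without overlap and 5 at an unadjusted p under 0.05), and the log2 of their summed level was 15.68 to 15.90 in saline lungs and 15.39 to 15.61 after bleomycin. Scgb1a1, the defining club cell secretory protein, differed by -0.19 (adjusted p = 0.379), and Gabrp, Bpifa1 and Scgb3a1 by -0.79, -0.72 and -0.56 (adjusted p 0.181, 0.0789 and 0.0823). The part of club cells in these differences was not tested.

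Cyp2d22, one of the mouse drug-metabolising Cyp2d enzymes, had the smallest adjusted p of the 62 members in the fit of all 6 arrays. It read 8.96, 8.74 and 8.84 in saline lungs and 7.39, 7.79 and 7.70 after bleomycin. The groups lay about a whole log2 unit apart, well beyond the spread within each (SD 0.11 and 0.21, n = 3). The mean fell by 1.22 (SE 0.13, adjusted p = 0.00283), or 2.32-fold, and a further probe set for the gene fell by 0.92 (adjusted p = 0.00296). The call held with each array left out in turn (adjusted p 0.00507 to 0.0238), including array B (0.00854). The remaining 6 members of Cyp2d, dim in saline lung at 4.50 to 6.81, ranged from -0.23 to 0.23 with none called.

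Cyp3a13, a member of the family that oxidises a wide range of drugs, read 6.03, 5.91 and 5.88 in saline lungs and 5.16, 5.32 and 5.47 after bleomycin. The groups did not overlap, although both lay in a dim range where signal and background are hard to separate. The mean fell by 0.62 (SE 0.12, adjusted p = 0.0243), and with 1 array left out the adjusted p ran from 0.0493 (without F) through 0.0576 (E), 0.0590 (B), 0.0617 (C and D alike) to 0.0817 (A). The other Cyp3a genes, all dim, lay between -0.20 and 0.03.

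Other epithelial and inducible members varied more between arrays than between groups. Cyp2s1, an epithelial enzyme found mostly outside the liver, read 10.85, 10.02 and 10.51 in saline lungs and 9.60, 10.36 and 10.21 after bleomycin, so the groups overlapped (difference -0.41, SE 0.25, adjusted p = 0.383). With 1 array left out it ran from -0.18 (without D) to -0.63 (without B), with -0.21 without A. Cyp2e1, the ethanol-inducible enzyme, read 9.62, 8.42 and 8.92 and then 8.24, 8.92 and 8.55, also overlapping (-0.42, SE 0.29, adjusted p = 0.446). For Cyp2e1 the difference ran from -0.10 (without A) to -0.70 (without B), with -0.25 without D. None of these fits passed. Saline B was the lowest saline array for both genes.

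Cyp1a1, the classical target of the aryl hydrocarbon receptor, had the widest spread of all members. It read 8.80, 8.08 and 9.34 in saline lungs and 8.81, 10.42 and 7.55 after bleomycin. Bleomycin arrays E and F thus held both extremes, and the pooled SD of 1.11 compared with 0.49 for the next member, Cyp2e1. The difference of 0.18 (SE 0.63, adjusted p = 0.896) was -0.15 without array B, -0.56 without E and 0.87 without F. Leaving out either B or E thus turned its sign. Cyp1b1, which hydroxylates oestrogens and polycyclic hydrocarbons, read 7.54, 7.42 and 7.82 and then 8.22, 7.93 and 7.39 (0.25, SE 0.21, adjusted p = 0.531), and its other probe sets read -0.05 and -0.46, so they did not share a sign. Of 4 listed aryl hydrocarbon receptor targets outside the P450 genes, limma called 0, and 0 had an unadjusted p under 0.05. On bleomycin arrays D, E and F, Nqo1 read 6.92, 7.46 and 6.44 and Aldh3a1 read 7.25, 8.03 and 6.96. For both, as for Cyp1a1, E was the highest and F the lowest of all 6 arrays. Tiparp read 9.50, 9.41 and 8.99, and the dim Ahrr 4.58, 4.63 and 4.52. This likeness between arrays was not tested.

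Within Cyp2b, all 4 members lay below 0 and 3 did so without overlap, with none called by limma (2 at an unadjusted p under 0.05). Over all genes, 57.0% lay below 0 and 14.6% did so without overlap. Cyp2b9 (-0.35), Cyp2b13 (-0.27) and Cyp2b19 (-0.09) were dim in saline lung at 5.87 to 6.55. Members of a subfamily share sequence and their probes may cross-hybridise, so these 4 may not be independent readings. This was not tested. Cyp2c, whose enzymes make epoxides of arachidonic acid, was the largest subfamily with 11 members, all dim at 4.52 to 6.70, and none was called by limma, nor had an unadjusted p under 0.05 (-0.29 to 0.03, median -0.18). Cyp2j, another group of arachidonic acid epoxygenases, had 4 members and no call (1 at an unadjusted p under 0.05, lower). Its named member Cyp2j6 differed by -0.06 (adjusted p = 0.808), and Cyp2j9, singled out after its values were seen, by -0.34 (adjusted p = 0.120) without overlap. Family 2 as a whole had 31 members, of which 26 (83.9%) lay below 0 and 2 (6.45%) were called lower. Of all genes 1.90% were called lower, and 57.0% lay below 0, or 68.5% in the dimmest class. The median saline mean of family 2 was 6.08, so most of its members were dim.

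**Figure D2:**
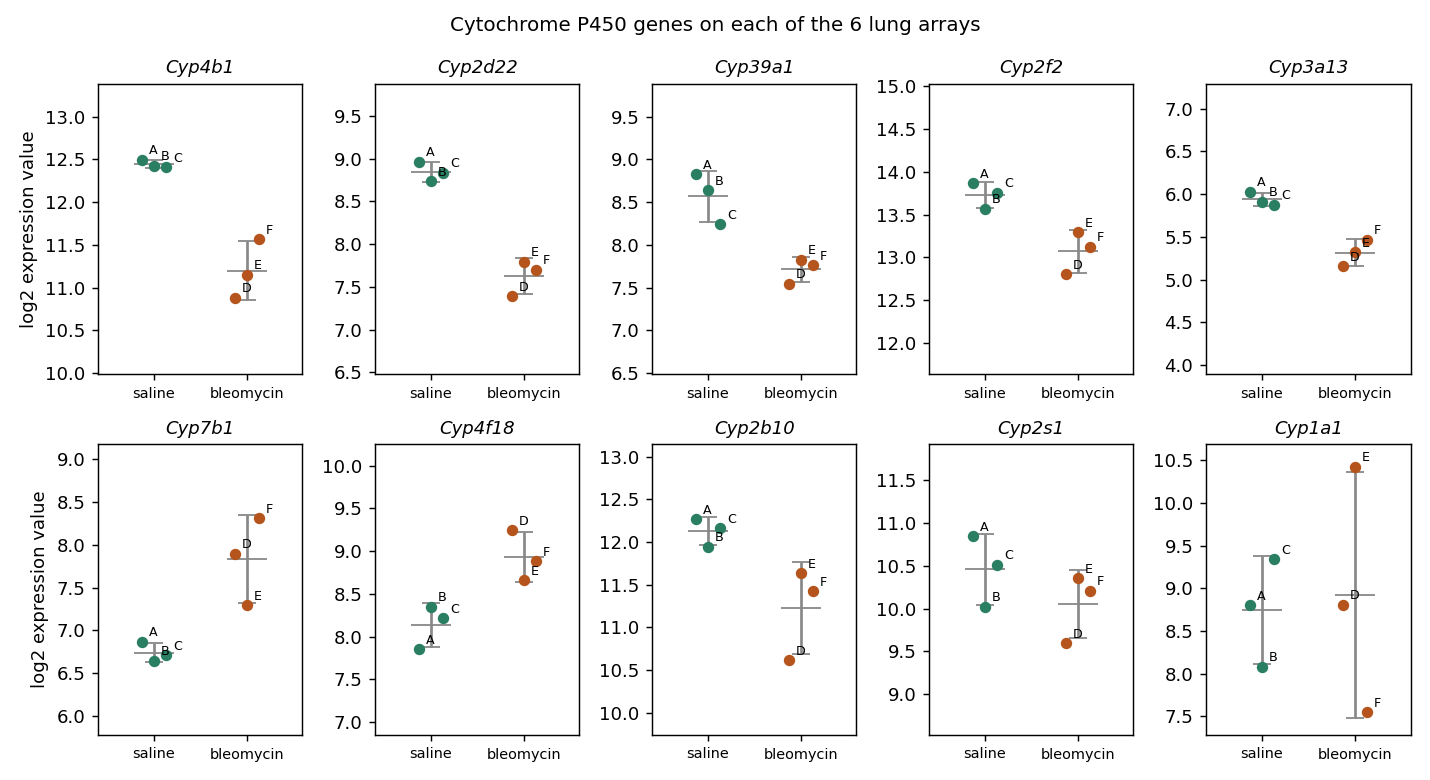
Log2 expression value on the vertical axis for named P450 genes on each of the 6 arrays, saline A to C and bleomycin D to F, each panel on its own axis, with a long bar at the group mean and whiskers of 1 SD. Cyp4b1 and Cyp2d22 show separated groups, Cyp7b1 and Cyp4f18 lie higher on the bleomycin arrays, and Cyp1a1 shows points from 7.55 to 10.42 within the bleomycin group.

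Cyp4b1, which hydroxylates fatty acids and activates the lung toxin ipomeanol, fell by about as much as Cyp2d22. It read 12.49, 12.43 and 12.41 in saline lungs, with little spread (SD 0.04), and 10.88, 11.15 and 11.56 after bleomycin (SD 0.34, n = 3 in each group). The groups did not overlap, and their means differed by more than either SD. The mean fell by 1.25 log2 units (SE 0.17, adjusted p = 0.00668), or 2.37-fold, and the call held with each array left out in turn (adjusted p 0.00671 to 0.0486).

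Cyp4f18, an enzyme of myeloid cells that hydroxylates the leukocyte attractant leukotriene B4, moved the opposite way. It read 7.85, 8.35 and 8.21 in saline lungs and 9.25, 8.66 and 8.88 after bleomycin, without overlap. The mean rose by 0.79 (SE 0.18, adjusted p = 0.0475), or 1.73-fold. The call was lost without array A (adjusted p = 0.117), B (0.0603), C (0.105), D (0.107) or F (0.119), was lost after another quantile normalization (0.0621), and held without E (0.0406). Beside Cyp4f18, 9 of 14 macrophage markers rose and none fell (log2 of their summed level 13.58 to 13.96 in saline lungs and 14.82 to 14.98 after bleomycin). Of 9 neutrophil markers, limma called 0 and 0 had an unadjusted p under 0.05 (11.64 to 12.43 against 11.47 to 12.92). The part of these cells in the rise was not tested.

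No other Cyp4f gene was called. Cyp4f16 read 7.41, 7.65 and 7.39 and then 7.90, 7.47 and 7.63, with overlap (0.18, adjusted p = 0.487). Its other probe set gave 0.33 (adjusted p = 0.297). Cyp4f15, singled out after its values were seen, read 8.20, 8.32 and 8.37 in saline lungs and 7.86, 7.94 and 7.89 after bleomycin, lower without overlap (-0.40, adjusted p = 0.0667). Cyp4f13 and Cyp4f14 were at -0.14 and -0.0047. The difference between these genes was not tested. Cyp4v3, another fatty acid hydroxylase, read 9.86, 9.65 and 9.91 and then 9.01, 10.10 and 9.39, with array E above every saline array (-0.30, SE 0.24, adjusted p = 0.516). Its difference ran from -0.06 without D to -0.60 without E, and its other probe set gave -0.08 (adjusted p = 0.780). The 3 Cyp4a genes, targets of PPAR alpha in liver, were dim and not called.

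Among sterol enzymes, 2 that add a hydroxyl group to oxysterols at the same ring position moved in opposite directions. Cyp7b1, which acts on side-chain oxysterols and on the steroid DHEA, read 6.87, 6.64 and 6.71 in saline lungs (SD 0.11) and 7.90, 7.29 and 8.31 after bleomycin (SD 0.51). Every bleomycin array was higher, by unequal amounts. The mean rose by 1.09 (SE 0.23, adjusted p = 0.0346), or 2.13-fold, and a further probe set rose by 1.59 (adjusted p = 0.0190). On the brightest probe set the call was lost without array A (0.0955), B (0.0860), C (0.0965), D (0.0878) or F (0.0788) and held without E (0.00598).

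Cyp39a1, an oxysterol hydroxylase with a preference for the form made in brain, read 8.83, 8.64 and 8.24 in saline lungs and 7.55, 7.83 and 7.76 after bleomycin, without overlap. The mean fell by 0.86 (SE 0.16, adjusted p = 0.0252), or 1.81-fold. The adjusted p was 0.0822 without array A, 0.0679 without B, 0.0684 without D and 0.0743 without F, and the call held without C (0.0160) or E (0.0417).

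Cyp27a1, the mitochondrial sterol hydroxylase, read 8.37, 8.50 and 8.41 and then 8.18, 8.13 and 8.20, lower without overlap by a small amount (-0.25, SE 0.10, adjusted p = 0.187). The cholesterol hydroxylase of neurons, Cyp46a1, was also lower on every bleomycin array (-0.41, adjusted p = 0.0917), as was Cyp21a1 of adrenal steroid synthesis (-0.31, adjusted p = 0.192), both singled out after their values were seen. Cyp26a1, which degrades retinoic acid, differed by 0.06 (SE 0.15, adjusted p = 0.863). The liver bile acid enzyme Cyp7a1 read 5.51 in both groups. Cyp11a1 (-0.14), Cyp11b2 (0.07) and Cyp17a1 (-0.07) of steroid synthesis, and Cyp24a1 (-0.07) and Cyp27b1 (-0.25) of vitamin D metabolism, were dim and not called.

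Read by brightness in saline lung, the negative differences were larger among bright members. The 4 classes hold equal numbers of all genes, divided by saline mean. In the brightest class, where 3.78% of all genes were called lower, the 5 members were Cyp2f2, Cyp4b1, Cyp2b10, Cyp2s1 and Cyp4v3. All 5 were below 0, 2 were called lower, and their median was -0.66, against 0.00 for all genes of that class. With 5 members, that median is the value of 1 gene, Cyp2f2. In the next class, the 8 members had a median of -0.36, against -0.01, with 2 called lower (2.32% of all genes of the class) and 1 higher (3.78%). The 12 members of the class after that had a median of -0.15, against -0.05, with 1 called higher (4.97% of all genes of the class). The 37 members of the dimmest class had a median of -0.12, against -0.06, with 1 called lower (0.419%). Thus 49 of the 62 P450 genes lay in the 2 dimmer classes, where background signal can compress differences on the log2 scale.

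**Figure D3:**
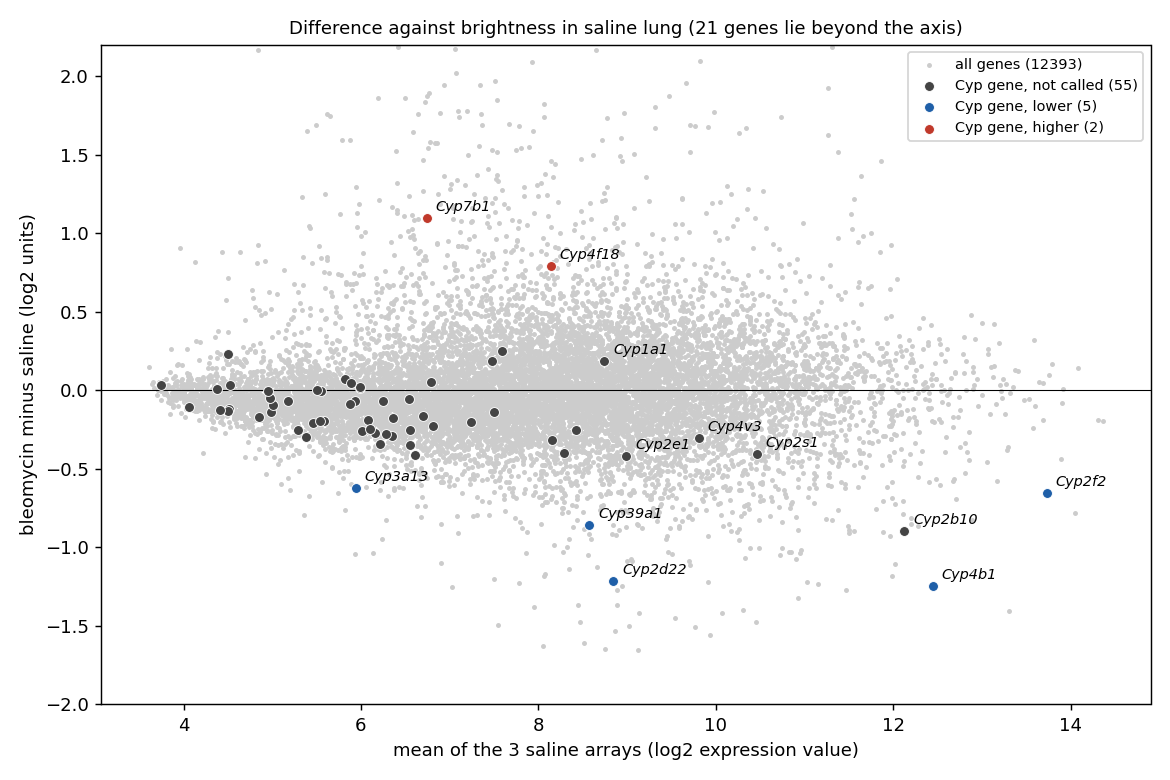
Difference in log2 units (vertical axis) against the mean log2 value in saline lung (horizontal axis) for all 12393 genes in grey and the 62 P450 genes as larger points, with 21 genes beyond the vertical axis not drawn. P450 genes are blue when called lower, red when called higher and dark grey otherwise, and the 5 members of the brightest class all lie below 0.

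The bright members were low together on array D and less uniformly on E and F. Set against each gene's saline mean, the median over the 5 members of the brightest class was 0.14 on array A, -0.16 on B and 0.03 on C. It was -0.93 on array D, -0.43 on E and -0.61 on F, so every bleomycin array lay below every saline array and D was the lowest. On every array but C, this median was the value of Cyp2f2. Array D was the lowest for all 5 of these members, and also for all 5 that were called lower. No share of all genes lowest on D was taken. Of the club cell markers named above, Scgb1a1 and Gabrp were also lowest on D, and Bpifa1 and Scgb3a1 were lowest on F. A low reading on D was thus not particular to P450 genes. For the other members the same median stayed between -0.16 and 0.06 on every array. Leaving out array D moved the median difference of the brightest class to -0.52, and leaving out B to -0.74. With arrays weighted by limma, D had the lowest weight (0.50, against 0.55 on A and 2.37 on F). The median difference of the brightest class was then -0.57. In each of these fits it was the value of Cyp2f2.

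**Figure D4:**
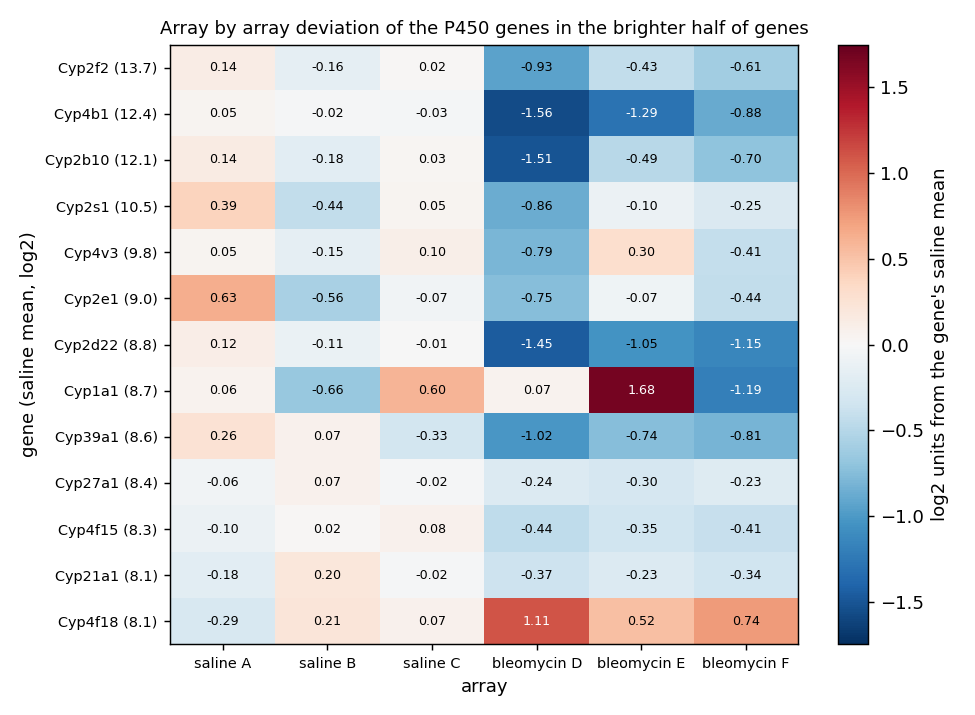
Deviation from the saline mean in log2 units, shown as colour and printed in each cell, for the 13 P450 genes of the 2 brighter classes (rows, brightest first) on the 6 arrays (columns). Bleomycin array D holds the lowest value of each of the first 5 rows, and Cyp4f18 in the last row is higher on all 3 bleomycin arrays.

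Neighbouring P450 genes did not all move alike. Under RefSeq's gene order on GRCm38.p6, 44 members fell into 8 groups whose consecutive members lie within 1 Mb of each other. One group holds Cyp2s1, 3 Cyp2b genes, Cyp2b10, Cyp2g1, Cyp2a12 and Cyp2f2, and these 8 ranged from -0.90 to -0.09 with a median of -0.32, although only Cyp2f2 was called. Cyp4b1 lies beside Cyp4a12a, Cyp4a14 and Cyp4a31, which were at -0.28, -0.17 and 0.01. The Cyp2d group held Cyp2d22 as its only called member, and the Cyp2c group held none.

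Genes that supply P450 enzymes and control them were read from lists of each kind. Of 18 electron transfer and heme genes read, limma called 2 higher and none lower (4 higher and 2 lower at an unadjusted p under 0.05). Those called were Hmox1, which degrades heme, by 1.16 (adjusted p = 0.00881) and Blvra, which reduces the resulting biliverdin, by 0.53 (adjusted p = 0.0356). Of the uncalled genes, Blvrb (0.63, adjusted p = 0.0591) and Hmox2 (0.46, adjusted p = 0.0645) were higher without overlap. Cpox (-0.53, adjusted p = 0.0517) and Pgrmc1 (-0.48, adjusted p = 0.110) were lower without overlap. The median of the 18 was 0.01. Por, the gene of P450 oxidoreductase, was not among the genes read. None of the 20 listed P450 regulators was called by limma (median -0.11, 1 higher and 1 lower at an unadjusted p under 0.05), with Ahr itself at -0.30 (adjusted p = 0.236), and neither of 2 epoxide hydrolases was called. Of 3 P450 genes outside the naming rule, Tbxas1, the thromboxane synthase of platelets and macrophages, rose by 1.24 (adjusted p = 0.0115). Cyp51 of cholesterol synthesis (0.44, adjusted p = 0.170) and the prostacyclin synthase Ptgis (-0.12) did not pass.

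Markers of other cell types were read beside these results. Of 6 ciliated cell markers 2 fell, and the log2 of their summed level was 11.50 to 12.02 in saline lungs and 11.01 to 11.15 after bleomycin. Of 8 type 2 cell markers limma called none (1 at an unadjusted p under 0.05, lower; 16.17 to 16.24 against 15.86 to 16.19), and of 11 endothelial markers 3 fell (14.41 to 14.64 against 13.99 to 14.13). Of 7 type 1 cell markers 1 fell, of 13 fibroblast markers 4 rose and 4 fell, of 10 smooth muscle markers 1 rose, and of 5 B and plasma cell markers 1 rose. Markers of hepatocytes, steroid-producing cells and epidermis gave 0 calls by limma among 12, 4 and 7 genes, of which 2, 0 and 0 had an unadjusted p under 0.05. The part of these cell types in the P450 differences was not tested.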

How the data were processed

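Total RNA from whole lung was hybridised to Affymetrix MOE430A arrays, 3 saline and 3 bleomycin. The values deposited by the authors are log2 expression values per probe set, made with RMA per the submitters' processing notes; its version is not given in the sources used here. RMA shares information across arrays and brings them to 1 distribution, so a change common to most genes would be hidden. After 64 control probe sets were left out, 22626 were tested with limma 3.58.1 (lmFit, eBayes) in R 4.3.3, without covariates, bleomycin against saline, with Benjamini-Hochberg adjustment and a threshold of 0.05. SD is over 3 arrays a group.

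The 20380 probe sets with 1 symbol in the platform annotation gave 12393 genes, and the 75 for P450 genes gave the 62 members, 51 of them with 1 probe set. All 62 members matched RefSeq by gene identifier. Another 4 P450 probe sets with several symbols were left out of the member counts. The 4 brightness classes divide all genes equally by saline mean. The members and the lists were chosen with earlier results of these data known. The text names in full every called member, the 10 brightest in saline lung, and the 6 largest rises and 6 largest falls outside a dimmest class. For that choice alone, the 4 classes were set by the mean over all 6 arrays. A fixed list of lung P450 genes was also named, of which 3 (Cyp2a5, Cyp20a1, Cyp26b1) were not read. On simulated data for all 22626 probe sets, 85 of 100 changes of 1 log2 unit and 100 of 100 changes of 2 were recovered, with 7 false calls among 192. Alternatives were other normalizations, priors, array weights, a dim filter, other probe set rules, other thresholds and leaving out each array.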

Additional observations from a re-analysis of the deposited data

Results flagged for a closer look

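A probe set whose annotation lists several P450 symbols was left out of the member counts and rose on its own. Its mean went from 6.72 in saline lungs to 7.48 after bleomycin, a difference of 0.76 log2 units (SE 0.17, adjusted p = 0.0422 from limma, n = 3 in each group). No gene is named from it, because the signal cannot be assigned to 1 symbol. The other 3 such probe sets differed by -0.06, -0.81 and -0.22 and were not called.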

How the results depend on the processing

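The 2 genes called higher became 1 after another quantile normalization, 0 at an adjusted p of 0.01, and 0 to 2 with 1 array left out (0 without A, B, C, D or F, 2 without E). At an unadjusted p of 0.05, limma gave 2 higher and 13 lower members. No share of all genes was taken at that p, or at an adjusted p of 0.01 or 0.10. Counts at those thresholds therefore have no background beside them. The 5 called lower became 2 at an adjusted p of 0.01, 8 at 0.10, and 2 to 5 with 1 array left out (2 without A, B or D, 3 without C or F, 5 without E). The trended robust prior, array weights, ribosomal centring, the mean over a gene's probe sets, unmarked probe sets and the filter under 6 log2 units gave 2 higher and 4 to 7 lower. That filter left 31 members and removed Cyp3a13. The median of the brightest class, -0.66, ran from -0.77 to -0.52 over its alternatives. In each of them it was the value of Cyp2f2, so it adds nothing to that gene's own results. Among the named genes, 220 alternative values kept the state of the main fit, called or not called. Another 32 lost a call, 2 gained one and 0 called values changed sign. Most of the 220 belong to genes that were not called in the main fit. Of the called genes, Cyp2d22 and Cyp4b1 kept the call in all 15 alternatives. Cyp2f2 lost it in 8, Cyp4f18 in 7, Cyp3a13 and Cyp7b1 in 6 each, and Cyp39a1 in 5. Ribosomal centring moved the median of all probe sets by -0.055 and quantile normalization by 0.017. No paired analysis was possible because the arrays carry the letters A to F, each once, so the groups share none. Dim signal limits most members: 37 of 62 lie in the dimmest class. With 3 arrays a group, a p above the threshold does not show that a gene was unchanged.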

Other observations

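Genes around Cyp7b1 and Cyp4f18 in oxysterol and leukotriene metabolism were read after the values of those members had been seen. Ch25h, which makes an oxysterol that Cyp7b1 acts on, read 7.84 in saline lungs and 9.13 after bleomycin, a difference of 1.29 log2 units that did not pass (limma, adjusted p = 0.0586). Hsd3b7, the next enzyme of that route, differed by 0.30 (adjusted p = 0.371). For leukotriene B4, the synthesising enzyme Lta4h differed by 0.37 (adjusted p = 0.166) and the receptor Ltb4r1 by 0.43 (adjusted p = 0.114).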
